A study of Mus musculus with 6 samples.

Results

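The IL-6 family genes examined here are 10 rows of a gene count table from mouse fibroadipogenic progenitors (FAPs). They were taken by symbol from the 33276 genes of the table. They are the ligands Il6, Il11 and Lif, the cytokine Il33, the receptor chains Il6ra, Il6st, Osmr and Lifr, the transcription factor Stat3 and its feedback inhibitor Socs3. All 10 were present, and all 10 passed the filter on low counts. FAPs are stromal precursor cells of the muscle interstitium, able to form fibroblasts and fat cells. RNA-seq libraries were made from 3 samples of FAPs from peripheral blood, called circulating FAPs, and 3 samples of FAPs from muscle. Both groups came from mice with middle cerebral artery occlusion (MCAO), a stroke model in which a brain artery is blocked, so no library shows these genes without the occlusion. Age, time after occlusion, sorting markers and pooling of animals were not given in the sources used here.

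Ligands of the IL-6 family signal through receptor complexes that share the chain encoded by Il6st. Il6 first binds the chain encoded by Il6ra, Il11 binds its own receptor chain, Lif pairs Il6st with Lifr, and oncostatin M pairs it with Osmr. The bound complex activates JAK kinases, which phosphorylate Stat3, and Stat3 turns on Socs3, which blocks the receptor complex. In injured muscle FAPs are known as a source of Il6, and Il33, an IL-1 family cytokine released by damaged stromal cells, acts on regulatory T cells there.

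Total counts ran from 5522193 to 13813329 in circulating and from 17532558 to 23424039 in muscle libraries. 18S ribosomal RNA took 42.9% to 60.1% of circulating and 27.8% to 32.3% of muscle counts. Markers of FAPs and matrix-forming fibroblasts were abundant in both groups, with 10 listed genes summing to 10768 to 15403 CPM in circulating and 24197 to 30678 CPM in muscle libraries. None of the 10 passed in edgeR, and 2 of them, Dpp4 and Pi16, had positive log2 fold changes (2.26 and 1.47). Leukocyte markers summed to 121 to 166 CPM in circulating and 22.9 to 37.6 CPM in muscle libraries, over 14 listed genes of which none was at 0 in all libraries of a group. A single gene gave much of each circulating sum, S100a9 at 69.8 CPM in replicate 1, C1qa at 58.96 CPM in replicate 2 and S100a8 at 61.4 CPM in replicate 3. Mural cell markers summed to 45.6 to 64.1 CPM in circulating and 80.8 to 153 CPM in muscle libraries, over 5 listed genes. Of these, 3 had negative log2 fold changes, while those of Myh11 and Acta2 were positive (1.85 and 0.85), and 0 passed in edgeR. CPM is the usual unit of counts relative to library size, here with sizes scaled by trimmed mean of M values (TMM). In such bulk samples fewer cells of a type and less RNA per cell cannot be told apart.

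The promoters of 3 members are shown because Il6 and Socs3 were the members with the highest levels per kilobase in both groups and Lif is a second family ligand on the same receptor chain. Each runs from 250 bases before to 50 bases after an annotated start (RefSeq, GRCm38.p6), 5′ to 3′ on the gene's strand, with motif matches in capitals.
Il6, chr5:30012864-30013163, plus strand: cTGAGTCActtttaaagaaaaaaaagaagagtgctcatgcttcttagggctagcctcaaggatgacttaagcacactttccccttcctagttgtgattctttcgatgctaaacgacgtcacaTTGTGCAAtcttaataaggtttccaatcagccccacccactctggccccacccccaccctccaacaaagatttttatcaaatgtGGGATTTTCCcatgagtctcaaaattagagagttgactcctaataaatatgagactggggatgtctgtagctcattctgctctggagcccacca
Lif, chr11:4257318-4257617, plus strand: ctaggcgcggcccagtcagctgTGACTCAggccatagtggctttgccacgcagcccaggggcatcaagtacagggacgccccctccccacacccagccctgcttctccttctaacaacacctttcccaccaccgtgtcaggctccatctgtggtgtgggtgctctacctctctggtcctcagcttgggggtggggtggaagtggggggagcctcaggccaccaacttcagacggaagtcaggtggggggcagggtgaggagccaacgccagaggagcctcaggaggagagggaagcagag
Socs3, chr11:117969317-117969616, minus strand: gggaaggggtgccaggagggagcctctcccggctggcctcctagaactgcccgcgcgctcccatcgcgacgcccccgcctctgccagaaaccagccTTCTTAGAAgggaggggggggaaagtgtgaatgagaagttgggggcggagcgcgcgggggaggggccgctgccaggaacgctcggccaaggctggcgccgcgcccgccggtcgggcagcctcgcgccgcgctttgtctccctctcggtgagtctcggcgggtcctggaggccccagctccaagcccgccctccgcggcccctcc
The motifs searched, on both strands, were those of STAT (TTCNNNGAA), NF-kappaB (GGGA, any base, TTTCC), AP-1 (TGANTCA), CRE (TGACGTCA) and C/EBP (TTGCNNAA), and no 2 matches in these windows overlapped. In the Il6 window an AP-1 match lay at -249 to -243, a C/EBP match at -128 to -121 and the NF-kappaB match GGGATTTTCC at -44 to -35, counted with the start as 0. The Lif window held an AP-1 match at -228 to -222. The Socs3 window held a STAT match at -154 to -146, and its start lies upstream of the one GENCODE annotates. Of 32851 promoter windows of the same length, 8.30% held the STAT motif, 0.411% the NF-kappaB motif, 7.81% the AP-1 motif, 1.79% the CRE motif and 10.8% the C/EBP motif. Among the other members an AP-1 match was found for Osmr and at 1 of 2 starts of Il11, and a C/EBP match at 1 of 2 starts of Il33. The windows of Il6st, Il6ra, Lifr and Stat3 held no match. Another 4 motifs (a stricter STAT motif, the GC box, TATA and the E box) had been searched and were left out after matches were seen. These are letter matches and no measure of binding.

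Il6 was lower in every circulating library than in every muscle library. It stood at 226, 53.2 and 78.7 CPM in circulating replicates 1, 2 and 3, against 456, 371 and 457 CPM in muscle replicates 1, 2 and 3. The circulating libraries differed 4.24-fold among themselves and the muscle libraries 1.23-fold. The means were 119 ± 93.0 CPM in circulating FAPs, against 428 ± 49.6 CPM in muscle FAPs (SD, n = 3 each). Its log2 fold change, circulating minus muscle, was -1.84 ± 0.52 (SE) and did not pass the threshold of 0.05 in edgeR's quasi-likelihood test adjusted over all 20248 genes tested (adjusted p = 0.160). Circulating replicate 1, the highest of its group, bears on this: without it the log2 fold change was -2.76 and passed (adjusted p = 0.0283 in edgeR), where 0.286% of genes were called lower and 0.00908% higher. Il6 also passed with DESeq2 (-1.97, adjusted p = 0.0399), and its adjusted p ran from 0.0222 to 0.313 over 19 settings, all with a negative fold change. The 14 listed genes that handling of cells is known to induce, Fos and Egr1 among them, summed to 5895 to 5931 CPM in circulating and 9811 to 11954 CPM in muscle libraries. Of these genes 1 passed, Fosb, lower in circulating libraries, where 0.104% of all genes were called lower. The median log2 fold change of the 14 was -0.65, beside -0.65 for all genes of at least 20 CPM. The part of handling in the Il6 difference was not tested.

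Il11, a ligand known for its part in fibrosis, was near the limit of detection in circulating FAPs. It had 9, 4 and 9 reads in circulating replicates 1, 2 and 3, or 0.657, 0.532 and 0.988 CPM. Muscle replicates 1, 2 and 3 had 20, 149 and 170 reads, or 1.19, 7.56 and 8.31 CPM. The groups did not overlap, but muscle replicate 1 lay close to the circulating libraries. Stray reads were gauged, by a measure chosen after the counts were seen, from the pooled reads per kilobase over 379 genes of sensory receptors (vomeronasal, taste, trace amine), called silent genes here because stromal cells are not known to use them. Against that background, Il11 stood at 0.597, 0.408 and 1.02 times in circulating replicates 1, 2 and 3, against 1.82, 11.3 and 16.5 times in muscle replicates 1, 2 and 3. The circulating values are thus at or below background, and the log2 fold change of -2.96 ± 0.78 (adjusted p = 0.148 in edgeR; 0.00782 in DESeq2, where it passed) rests on a handful of reads. The background itself was higher in circulating libraries, at 0.920 to 1.52 reads per kilobase after scaling each library to CPM without 18S, than in muscle libraries, at 0.313 to 0.500.

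Lif, a ligand of stem and stromal cell signalling, was also low. It stood at 6.35, 3.46 and 0.878 CPM in circulating replicates 1, 2 and 3, against 13.0, 7.51 and 26.7 CPM in muscle replicates 1, 2 and 3. The groups did not overlap, and the values spread 7.23-fold within circulating and 3.55-fold within muscle libraries. Its log2 fold change was -2.13 ± 0.85 (adjusted p = 0.221 in edgeR; 0.0515 in DESeq2, or 0.0351 in DESeq2 without the low count filter, where it passed). With a library left out it ran from -1.57 without muscle replicate 3 to -2.93 without circulating replicate 1. In circulating replicates 1, 2 and 3 Lif was 2.76, 1.27 and 0.432 times the silent-gene background, against 9.44, 5.38 and 25.3 times in muscle replicates 1, 2 and 3.

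Il33 did not separate the groups. It stood at 93.7, 21.3 and 56.0 CPM in circulating replicates 1, 2 and 3, against 30.2, 79.5 and 98.4 CPM in muscle replicates 1, 2 and 3. The log2 fold change of -0.28 ± 0.65 (adjusted p = 0.818 in edgeR) was smaller than its error. Its sign turned under several settings, 0.33 with TMM factors taken from abundant genes (at least 20 CPM) among them.

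**Figure D1:**
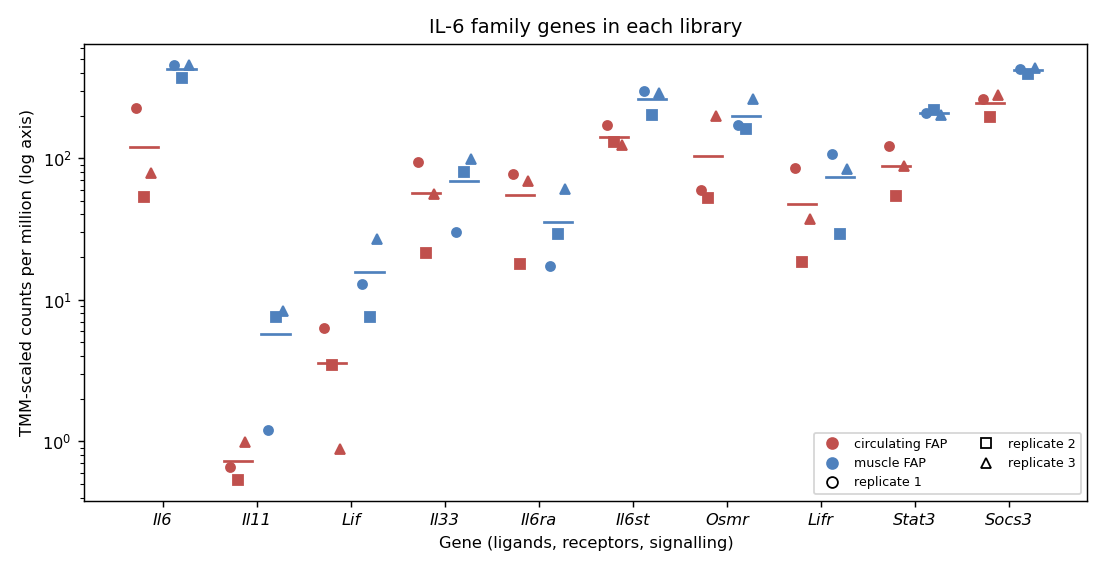
TMM-scaled CPM (log axis) of the 10 genes in each library; symbols mark replicates and horizontal bars the group means. For Il6, Il11, Lif, Il6st, Stat3 and Socs3 all circulating libraries lie below all muscle libraries, and for Il33, Il6ra, Osmr and Lifr the groups overlap.

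The shared receptor chain Il6st was at 171, 130 and 124 CPM in circulating replicates 1, 2 and 3, against 297, 202 and 288 CPM in muscle replicates 1, 2 and 3. The groups did not overlap, and the log2 fold change was -0.89 ± 0.37 (adjusted p = 0.229 in edgeR). With TMM on abundant genes it was -0.17.

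Il6ra, the chain that binds Il6 itself, was the member with a positive log2 fold change. It stood at 76.9, 17.97 and 69.3 CPM in circulating replicates 1, 2 and 3, against 17.4, 29.0 and 60.2 CPM in muscle replicates 1, 2 and 3. Circulating replicate 2 and muscle replicate 1 were nearly equal, and the groups overlapped widely. The log2 fold change of 0.62 ± 0.70 did not pass (adjusted p = 0.618 in edgeR) and was positive in all 19 settings, from 0.23 to 1.31. Leukocytes are known to express Il6ra, and their marker sums were higher in circulating libraries, as given above. The part of leukocytes in these values was not tested.

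Osmr, the oncostatin M receptor chain, split the circulating libraries. It was at 59.5, 51.9 and 197 CPM in circulating replicates 1, 2 and 3, against 172, 161 and 262 CPM in muscle replicates 1, 2 and 3. Circulating replicate 3 lay within the muscle range and the other circulating libraries below it. The log2 fold change was -0.95 ± 0.56 (adjusted p = 0.355 in edgeR), and -1.95 without circulating replicate 3 (adjusted p = 0.209 in edgeR).

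Lifr, the receptor chain for Lif, was at 85.5, 18.5 and 37.1 CPM in circulating replicates 1, 2 and 3, against 107, 29.3 and 84.1 CPM in muscle replicates 1, 2 and 3. Both groups spread widely and overlapped (-0.64 ± 0.69, adjusted p = 0.601 in edgeR), and with TMM on abundant genes the log2 fold change was 0.04. It was -1.47 without circulating replicate 1 (adjusted p = 0.307 in edgeR).

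Stat3, the transcription factor of the pathway, was at 122, 54.0 and 87.6 CPM in circulating replicates 1, 2 and 3, against 207, 219 and 201 CPM in muscle replicates 1, 2 and 3. The muscle libraries lay within 1.09-fold of each other and above all circulating libraries. Its log2 fold change was -1.25 ± 0.42 (adjusted p = 0.188 in edgeR), or -0.59 with TMM on abundant genes.

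Socs3, the inhibitor that Stat3 induces, was at 261, 195 and 277 CPM in circulating replicates 1, 2 and 3, against 428, 396 and 435 CPM in muscle replicates 1, 2 and 3. It varied least of the members within circulating libraries by coefficient of variation (17.8%), and the groups did not overlap. The log2 fold change was -0.78 ± 0.32 (adjusted p = 0.228 in edgeR), or -0.08 with TMM on abundant genes.

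In edgeR, 0 of the 10 members passed over all genes in either direction, where 0.109% of all genes tested passed (0.104% lower and 0.00494% higher). At an unadjusted p under 0.05, 6 members were lower and 0 higher, where 9.64% of all genes were lower and 9.71% higher. DESeq2 on the same genes called 2 members lower, Il6 and Il11. It gave an adjusted p to 15217 genes and called 7.08% of those lower. DESeq2 on all genes with a read had been run first and was replaced after both results were seen. It called 3 members lower, Il6, Il11 and Lif. Of the 13456 genes it gave an adjusted p, it called 10.3% lower and 1.16% higher. limma-voom called 0 members, where it called 0.444% of all genes lower and 0.00988% higher. Without a low count filter edgeR called 0 members, where 0.488% of all genes were lower and 0.019% higher. The 6 members lower at an unadjusted p were also the 6 whose groups did not overlap, where 11.4% of all genes had no overlap in that direction and 16.2% in the other. Abundant genes were more often on that side: of 4736 genes of at least 20 CPM, 28.8% had no overlap in the lower direction and 21.8% were lower at an unadjusted p under 0.05.

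The members' log2 fold changes had a median of -0.92, with 9 of 10 negative. Over all genes tested the median was 0.15 and 45.5% were negative, while genes of at least 20 CPM had a median of -0.65 and 78.3% were negative. Scaling by TMM on abundant genes instead shifted the all-gene median by 0.70. With that scaling 0 members passed, where 0.0198% of all genes were lower and 0.0148% higher. The members' median was then -0.19, and 7 of 10 were negative where 26.3% of all genes were. Of the members 2 were lower at an unadjusted p under 0.05, against 3.11% of all genes. With that scaling the all-gene median was 0.85, and the share of genes of at least 20 CPM that were negative was not counted. Il6, Il11, Lif and Stat3 then kept log2 fold changes of -1.21, -2.30, -1.42 and -0.59, and the other members lay between -0.21 and 1.29, where genes of at least 20 CPM had a median of 0.06.

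**Figure D2:**
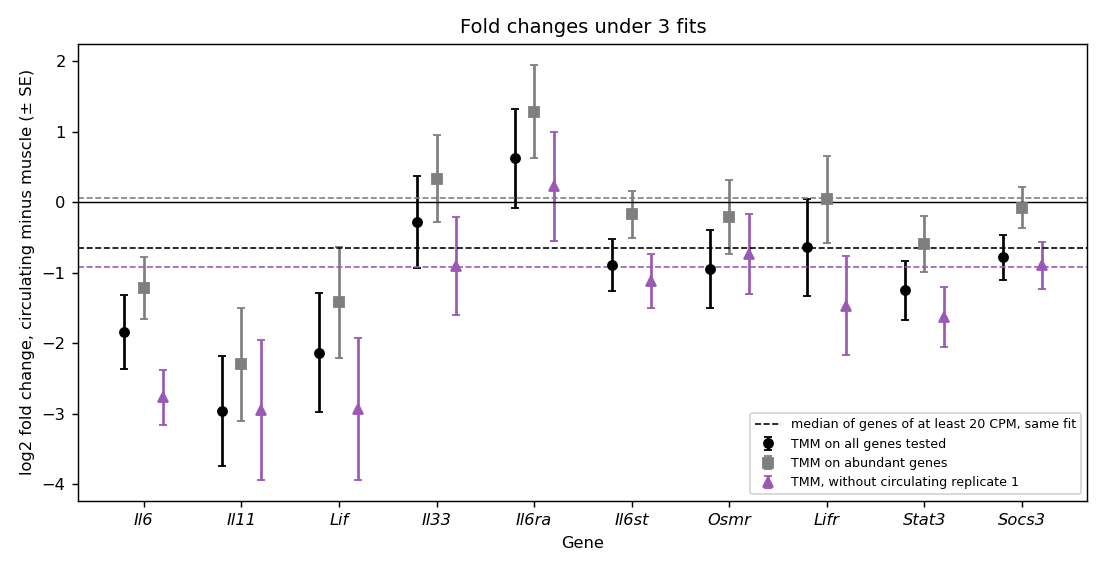
Log2 fold change, circulating minus muscle, with its SE for each gene under TMM on all genes tested, TMM on abundant genes, and TMM without circulating replicate 1; dashed lines of the same colours mark the median of genes of at least 20 CPM in each fit, at -0.65, 0.06 and -0.92. Il6, Il11, Lif, Il6st and Stat3 lie below the line of their own fit in all 3 fits, and Il6ra lies above 0 in all 3.

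The libraries of each group were also ranked for each member. No such ranks were counted over all genes, so the counts cannot be read as a trait of the members. Circulating replicate 2, the library with the fewest counts, was the lowest of its group for 8 of 10 members, and circulating replicate 1 was the highest for 7. Among muscle libraries replicate 3 was the highest for 7 members and replicate 2 the lowest for 6.

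Levels of different genes were compared as CPM per kilobase of exon. Annotated exons can be longer than the transcripts present, so this order is approximate. In circulating FAPs Socs3 was first at 84.6 ± 15.1 CPM per kilobase and Il6 second at 49.1 ± 38.3 (SD, n = 3), and they overlapped. In circulating replicate 1 Il6 was above Socs3 (92.9 against 90.4 CPM per kilobase). Il33, Il6st, Stat3, Osmr, Il6ra and Lifr followed, from 19.7 down to 4.37, each overlapping its neighbour. Lif at 0.819 and Il11 at 0.349 were last and overlapped each other but not Lifr. In muscle FAPs Il6 was first at 176 ± 20.4 CPM per kilobase, above Socs3 at 145 ± 7.30 with no overlap. Il33, Il6st, Stat3 and Osmr came next, from 24.0 down to 16.4, and overlapped in turn. Lifr at 6.81, Il6ra at 4.11, Lif at 3.61 and Il11 at 2.73 closed the order and overlapped in turn.

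Ratios of members within a library do not depend on how libraries are scaled. Il6 reads per kilobase were 6.03, 1.88 and 2.90 times those of Il6st in circulating replicates 1, 2 and 3, against 7.02, 8.37 and 7.26 times in muscle replicates 1, 2 and 3. All circulating ratios lay below all muscle ratios. Il6 per Socs3 was 1.03, 0.325 and 0.338 in the circulating libraries, replicates 1 to 3, against 1.27, 1.11 and 1.25 in the muscle libraries, again without overlap. The ratio of Il33 to Il6 was 0.349, 0.337 and 0.598 in the circulating libraries, against 0.0557, 0.180 and 0.181 in the muscle libraries, higher in every circulating library. For each of these 3 ratios p was 0.1 in a two-sided exact permutation test, the lowest value possible with 3 against 3, or 0.3 after adjustment over the 9 ratios computed, which were chosen after the values were seen. All 3 contain Il6, whose groups did not overlap, so they are not separate observations. No share of ratios without overlap was counted over other gene pairs. For Il6ra, Osmr and Lifr per Il6st the groups overlapped (exact permutation p = 0.3, 0.8 and 0.8). They also overlapped for Socs3 per Stat3, Osmr per Lifr and Il6ra per Lifr (exact permutation p = 0.2, 0.6 and 0.3).

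**Figure D3:**
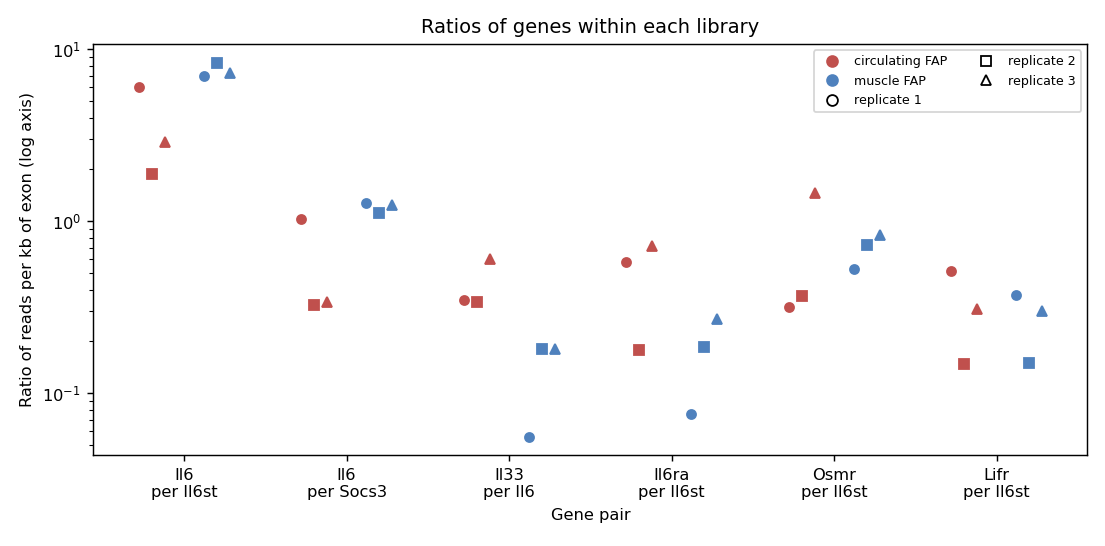
Ratio of reads per kilobase of exon between pairs of genes within each library (log axis), with symbols for replicates. Il6 per Il6st and Il6 per Socs3 are lower, and Il33 per Il6 higher, in every circulating than in every muscle library, while the 3 receptor ratios overlap.

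The members differed in how far they stood above background. Il6 was 35.0 to 176 times and Socs3 108 to 205 times the silent-gene background in circulating libraries, against 475 to 775 and 426 to 621 times in muscle libraries. The receptor chains were closer to it in circulating replicate 2, where Lifr was 2.74 times, Il6ra 3.32 times and Osmr 6.83 times the background. In muscle libraries the lowest values were 8.46 times for Lifr, 6.37 times for Il6ra and 41.5 times for Osmr. The scaled background was itself higher in circulating libraries, as given for Il11, so these ratios differ between groups through it as well.

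**Figure D4:**
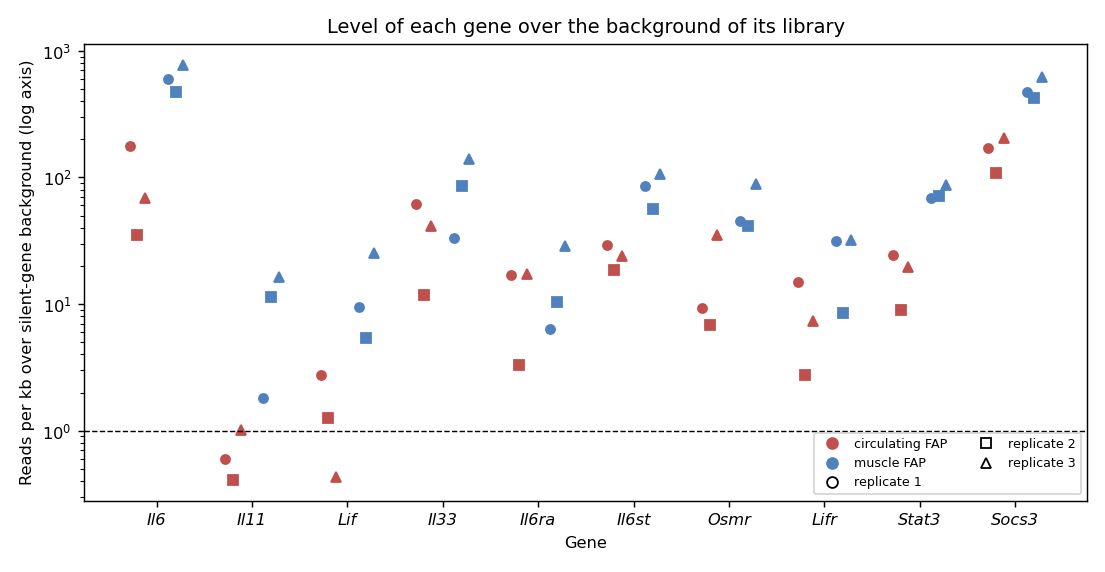
Reads per kilobase of each gene divided by those of 379 silent receptor genes of the same library (log axis); the dashed line marks 1, the background itself. Il11 in all circulating libraries and Lif in circulating replicates 2 and 3 lie at or near the line, between 0.408 and 1.27.

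Around the members, 76 further genes of the pathway, with 12 of the IL-33 receptor and IL-1 family among them, were listed and 69 were tested. In edgeR 0 passed in either direction, while at an unadjusted p under 0.05 there were 16 lower and 5 higher, where 9.64% of all genes, 21.8% of genes of at least 20 CPM, were lower and 9.71% of all genes higher. DESeq2 called 8 lower and 2 higher (12 and 2 without the low count filter). With the filter, 7.08% of the 15217 genes it gave an adjusted p were called lower and 1.34% higher. The median log2 fold change of the 69 was -0.56, or 0.14 with TMM on abundant genes.

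Among the other ligands, 4 of 9 were tested. Clcf1, a cytokine of the family, had a mean of 1.79 ± 1.90 CPM in circulating FAPs, against 4.90 ± 1.40 CPM in muscle FAPs (adjusted p = 0.301 in edgeR), and Ctf2 of 1.03 ± 0.205 CPM in circulating FAPs, against 2.74 ± 2.31 CPM in muscle FAPs (adjusted p = 0.302 in edgeR). Clcf1 was 0.362 to 1.67 times background in circulating and 2.91 to 6.88 times in muscle libraries. Ctf2 was 0.809 to 1.25 times background in circulating and 1.11 to 8.68 times in muscle libraries. Oncostatin M (Osm), the ligand of Osmr, had 0 to 18 reads in circulating and 3 to 9 reads in muscle libraries and was too low to test.

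Of the other receptor genes and the sheddases that release receptors, 6 of 7 were tested. Il11ra1, the receptor chain for Il11, was abundant at 456, 639 and 475 CPM in circulating replicates 1, 2 and 3, against 843, 866 and 714 CPM in muscle replicates 1, 2 and 3. The groups did not overlap, with a log2 fold change of -0.63 ± 0.29 (adjusted p = 0.262 in edgeR), or 0.10 with TMM on abundant genes. Mice carry near-identical copies of this gene, so its counts are uncertain where reads fit several copies. The protease Adam10 had a mean of 25.8 ± 9.14 CPM in circulating FAPs, against 63.5 ± 26.9 CPM in muscle FAPs (adjusted p = 0.253 in edgeR), and Adam17 of 25.8 ± 15.3 CPM in circulating FAPs, against 38.2 ± 27.4 CPM in muscle FAPs (adjusted p = 0.657 in edgeR). Cntfr, the receptor chain for ciliary neurotrophic factor, and Il27ra were among the genes DESeq2 called. Cntfr was near background in circulating libraries and passed the low count filter through the muscle group. Il27ra was near background in muscle libraries and passed it through the circulating group. Cntfr had 2, 0 and 12 reads in circulating replicates 1, 2 and 3, against 38, 45 and 182 reads in muscle replicates 1, 2 and 3. Il27ra had 35, 21 and 128 reads in circulating replicates 1, 2 and 3, against 12, 36 and 15 reads in muscle replicates 1, 2 and 3. It was 1.38, 1.28 and 8.60 times background in circulating replicates 1, 2 and 3, against 0.650 to 1.63 times in muscle. Circulating replicates 1 and 2 thus lay within the muscle range by that measure. Both were singled out after their values were seen.

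All 10 kinases and other STAT factors were tested. Jak1, the main kinase of Il6st complexes, was at 144, 62.4 and 69.7 CPM in circulating replicates 1, 2 and 3, against 270, 332 and 433 CPM in muscle replicates 1, 2 and 3. The groups were well apart, with a log2 fold change of -1.90 ± 0.44 (adjusted p = 0.127 in edgeR), called lower by DESeq2 (adjusted p = 0.0126). With TMM on abundant genes Jak1 was at -1.25 (adjusted p = 0.0919 in edgeR). Stat5b had a mean of 16.6 ± 14.0 CPM in circulating FAPs, against 73.7 ± 10.6 CPM in muscle FAPs (-2.15 ± 0.69, adjusted p = 0.180 in edgeR; 0.0285 in DESeq2). Stat2, a factor of interferon signalling, ranged from 14.0 to 273 CPM in circulating and from 116 to 147 CPM in muscle libraries (adjusted p = 0.973 in edgeR).

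Of 16 inhibitors of the pathway, 13 had a negative log2 fold change, or 7 with TMM on abundant genes. Beside this, 78.3% of genes of at least 20 CPM were negative, and 45.5% of all genes, or 26.3% of all genes with TMM on abundant genes. With that scaling the share among genes of at least 20 CPM was not counted. Their median was then 0.06, beside 0.15 for the inhibitors. The 3 most abundant inhibitors were the phosphatase Ptpn2 and the SOCS proteins Socs1 and Socs2, with adjusted p = 0.631, 0.761 and 0.615 in edgeR. Socs1 had a mean of 34.4 ± 13.1 CPM in circulating FAPs, against 42.5 ± 5.02 CPM in muscle FAPs. DESeq2 called Socs5 and Socs7 lower (adjusted p = 0.00440 and 0.0241), with circulating levels of 2.25 to 2.97 and 1.46 to 2.13 times background, both singled out after their values were seen. Of all genes it gave an adjusted p, 7.08% were called lower.

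Of 21 known Stat3 target genes tested, 16 had a negative log2 fold change, or 10 with TMM on abundant genes. Of genes of at least 20 CPM 78.3% were negative, and of all genes 45.5%, or 26.3% of all genes with TMM on abundant genes. With that scaling the share among genes of at least 20 CPM was not counted. Their median was then 0.06, beside 0.10 for the target genes. Fos, an immediate early gene, was at 1055, 1071 and 1092 CPM in circulating replicates 1, 2 and 3, against 2670, 2049 and 2504 CPM in muscle replicates 1, 2 and 3 (-1.17 ± 0.23, adjusted p = 0.0909 in edgeR). Junb had a mean of 769 ± 158 CPM in circulating FAPs, against 1030 ± 244 CPM in muscle FAPs (adjusted p = 0.429 in edgeR). Cebpd, a factor of the acute phase response, had a mean of 651 ± 49.6 CPM in circulating FAPs, against 543 ± 101 CPM in muscle FAPs (adjusted p = 0.611 in edgeR). DESeq2 called the survival gene Mcl1 and the kinase Pim1 lower (adjusted p = 0.00621 and 0.0209), both singled out after their values were seen. It called 7.08% of all genes it gave an adjusted p lower. Fos, Junb and Ier3 of this list also belong to the handling response genes.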

How the data were processed

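RNA was measured by RNA-seq in 3 circulating and 3 muscle FAP samples. Extraction used RLT plus buffer and library construction a TruePrep transposase kit, per the labels. The authors deposited raw counts of reads per gene symbol. Trim Galore, STAR and featureCounts with GRCm39 are named, per the submitters' processing notes, while versions, options, annotation and strand setting are not given in the sources used here. Without strand, reads in exons shared by genes on opposite strands cannot be told apart. This touches 72 exon bases of Stat3 (0.756%), shared with Stat5a, and 242 exon bases of Il6ra (2.80%).

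Groups and replicates follow the labels, which do not say that samples came from separate mice, so the spread behind each p-value is that between samples and may be technical. Samples of one group differed beyond sampling noise (chi-square per degree of freedom 56.1 to 85.4). Genes were tested with edgeR 4.0.16 (quasi-likelihood F test, robust, TMM, default filterByExpr, no covariate) in R 4.3.3, with Benjamini-Hochberg adjustment over 20248 genes. SE was taken as the fold change over the root of F. DESeq2 1.42.0, limma 3.58.1 (voom), other scalings, filters, a replicate block and leaving out each library were alternatives. The steps were tested on simulated counts. Exon lengths are unions of GENCODE M21 exons (GRCm38), matched by symbol, for per-kilobase values, and promoters come from RefSeq, also GRCm38, so coordinates are those of the promoters and not of the count table. Silent-gene background is total reads over total exon length of 379 receptor genes. Ratios were compared with exact permutation tests in SciPy 1.17.1.

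DESeq2 was first run on all genes with a read and then limited to the genes of the edgeR filter after both results were seen; both are given. The silent-gene background, the ratios and the motif set were settled after values were seen. The members and lists were chosen with earlier results of these data known. All members are named, with the 3 most abundant genes of each other list and any past the threshold, except 1 gene that is not reported here. Other genes were named after their values were seen.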

Additional observations from a re-analysis of the deposited data

How the results depend on the processing

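Il6, Il11, Lif, Il6st, Osmr, Stat3 and Socs3 had a negative and Il6ra a positive log2 fold change in every setting that fitted them. Il33 reversed to 0.36 with upper quartile scaling, 0.33 with TMM on abundant genes and 0.20 with at least 50 reads in 3 samples, and ranged from -0.91 to 0.015 with a library left out, being positive at 0.015 without circulating replicate 2 and 0.011 without muscle replicate 3. Lifr reversed to 0.023 with upper quartile scaling and 0.042 with TMM on abundant genes. Il11 could not be fitted with at least 50 reads in 3 samples. Members called lower numbered 0, but 2 with DESeq2 (Il6 and Il11), 3 with DESeq2 without the low count filter (Il6, Il11 and Lif; a setting added after its results were seen) and 0 to 1 when a library was left out (Il6 without circulating replicate 1). Of the other pathway genes, 0 were lower, but 3 without a low count filter, 8 with DESeq2, 12 with DESeq2 without the filter, 1 with limma-voom and 0 to 1 with a library left out, and 0 were higher, but 2 with DESeq2 and 2 with DESeq2 without the filter.

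Over all genes 21 were lower and 1 higher. The lower count was 42 with RLE size factors, 1 with upper quartile scaling, 4 with TMM on abundant genes, 154 without a low count filter, 1078 with DESeq2, 1387 with DESeq2 without the filter and 90 with limma-voom, and 0 to 63 with a library left out, where 63 was without circulating replicate 1. The higher count was 2 with library size only, 3 with TMM on abundant genes, 6 without a low count filter, 5 with at least 50 reads in 3 samples, 204 with DESeq2, 156 with DESeq2 without the filter, 2 with limma-voom and 0 to 2 with a library left out. The cause of these shifts was not tested. Replicate numbers are shared by the groups, but same-numbered samples did not deviate together (correlations 0.0081, 0.0410 and 0.0058 across genes), and not every sample correlated best with its own number. With a replicate block 1 gene was lower and 0 higher, and 0 members passed. Il11 had 4 to 9 reads in circulating libraries.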

Other observations

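The IL-33 receptor and related IL-1 family genes were 12 of the 76 further genes above, and their calls are counted there. Of 12 tested, 6 had a positive log2 fold change, with a median of 0.12 beside 0.15 for all genes. With TMM on abundant genes 1 was negative, where 26.3% of all genes were, and the median was 0.83 beside 0.85 for all genes. In edgeR 0 passed, and at an unadjusted p under 0.05 there were 3 higher and 0 lower (9.71% of all genes were higher). DESeq2 called Irak2 higher, as it did 1.34% of the genes it gave an adjusted p. Irak2 had 59, 225 and 37 reads in circulating replicates 1, 2 and 3, against 1, 20 and 32 reads in muscle replicates 1, 2 and 3. In muscle libraries it was 0.0429 to 1.46 times background, so it passed the low count filter through the circulating group. In circulating replicates 1, 2 and 3 Irak2 was 1.84, 10.8 and 1.97 times background, so replicate 2 alone was well above it. Il18, an IL-1 family cytokine, was at 107, 49.5 and 86.6 CPM in circulating replicates 1, 2 and 3, against 38.3, 14.4 and 3.57 CPM in muscle replicates 1, 2 and 3 (2.11 ± 0.80, adjusted p = 0.210 in edgeR), without overlap. It was singled out after its values were seen. Il1rl1, the receptor for Il33, had a mean of 4.61 ± 1.82 CPM in circulating FAPs, against 6.73 ± 4.13 CPM in muscle FAPs (adjusted p = 0.664 in edgeR). Il1rl1 was 0.862 to 1.84 times background in circulating and 1.04 to 6.23 times in muscle libraries. The most abundant genes of the list were Irak1, Myd88 and Il1r1, with adjusted p = 0.525, 0.902 and 0.279 in edgeR. Il1b had 18, 112 and 6 reads in circulating replicates 1, 2 and 3, against 21, 4 and 21 reads in muscle replicates 1, 2 and 3. Leukocyte marker sums were also higher in circulating libraries, and their part in these values was not tested.

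The 3 genes with the pattern most like Il6 over the 6 libraries, among 4728 genes of at least 20 CPM, were Calm2, Gpx8 and C1qtnf2. Their root mean square difference from Il6 in centred log2 CPM was 0.18, 0.20 and 0.21. Calm2, which encodes calmodulin, was at 169, 54.8 and 79.8 CPM in circulating replicates 1, 2 and 3, against 390, 280 and 397 CPM in muscle replicates 1, 2 and 3 (adjusted p = 0.145 in edgeR).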
